A study of Mus musculus with 4 samples.

Results

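The metallothioneins Mt1 and Mt2, their transcriptional activator Mtf1 and the zinc transporters Slc30a1, Slc39a8 and Slc39a14 were followed in cultured mouse articular chondrocytes. These 6 genes of the 55141 in the expression tables were taken by their symbols. They were chosen by their family and with the TPM ratios of Mt1 and Mt2 in the same libraries already known, so the values below describe the members and carry no test.

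Chondrocytes were digested with collagenase from the femoral heads of mice 3 weeks old, grown in medium with fetal bovine serum and reseeded at confluency before RNA was extracted. Each of 4 conditions had 1 library, made from the 3′ ends of polyadenylated RNA. Cells of wild-type C57BL/6 mice made up the first library, by its label and by the study's account of the experiment, which also uses the name Control that its methods give to floxed miR-23a/b mice. The cluster knockout, Cart-miR-23clus KO in the study, came from C57BL/6 mice with floxed miR-23a/b clusters and Col2a1-cre, and lacks both miR-23 clusters in cells that have expressed Col2a1, because that promoter drives Cre. The miR-26a knockout (miR-26a KO, miR-26a -/-, C57BL/6) carries a deletion for which no Cre is named. In the last library miR-26a knockout cells (C57BL6/J) had been transfected with a miR-26a mimic. Whether the knockout library without mimic received the control transfection is not stated in the labels, so the mimic and the transfection itself cannot be told apart. The number of mice behind each culture is not given in the sources used here.

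Metallothioneins are small cysteine-rich proteins that bind zinc and copper in the cytosol and buffer the free metal. When free zinc rises, the zinc-finger protein MTF-1 binds short metal response elements in their promoters and raises their transcription, and glucocorticoids, cytokines and oxidants are known to raise it too. Transporters of the Slc30a family move zinc out of the cytosol and those of the Slc39a family move it in. Slc30a1, the exporter of the plasma membrane, is itself a target of MTF-1, and in cartilage the importer Slc39a8 has been linked to zinc entry, MTF-1 activity and matrix-degrading enzymes.

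Mt1 (ENSMUSG00000031765) lies on chromosome 8 from 94179082 to 94180327 and Mt2 (ENSMUSG00000031762) from 94172664 to 94173568 on the same strand of GRCm38, with 5513 bases between them. Promoter windows of 300 bases, from 250 bases before to 50 after a RefSeq start site, were searched on both strands for the metal response element (MRE) cores TGCACNC and TGCGCNC. The windows of Mt1 (chr8:94178839-94179138, plus strand) and Mt2 (chr8:94172368-94172667, plus strand) are printed because they hold the most matches among the members searched. They are RefSeq sequences of GRCm38.p6, and capitals mark the MRE cores.
Mt1: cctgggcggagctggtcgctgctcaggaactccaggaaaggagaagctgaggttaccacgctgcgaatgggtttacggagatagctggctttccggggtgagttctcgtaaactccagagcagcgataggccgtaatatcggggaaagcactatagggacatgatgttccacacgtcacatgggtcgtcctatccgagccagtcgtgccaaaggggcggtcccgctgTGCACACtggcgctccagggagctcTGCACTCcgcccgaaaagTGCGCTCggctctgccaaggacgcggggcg
Mt2: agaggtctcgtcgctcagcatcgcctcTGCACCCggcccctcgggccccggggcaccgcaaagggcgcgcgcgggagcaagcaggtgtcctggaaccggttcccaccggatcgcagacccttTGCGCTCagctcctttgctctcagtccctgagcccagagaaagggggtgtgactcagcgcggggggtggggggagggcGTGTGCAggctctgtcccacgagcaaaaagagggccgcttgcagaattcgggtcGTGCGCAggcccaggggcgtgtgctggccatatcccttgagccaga
The Mt1 window held 3 MRE cores and the Mt2 window 4. Among 32851 windows of the same length, 25.7% held at least 1 core, 1.97% as many as Mt1 or more and 0.517% as many as Mt2 or more. The windows of Mt1 and Mt2 were 60.7% and 67.7% G or C, against a median of 52.7% over all windows. Metallothioneins are textbook MTF-1 targets, and a match is a description of letters, not a bound site.

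The cores of Mt1 began 23 bases before and 2 and 20 bases after its RefSeq start. Other GENCODE transcripts of Mt1 start at 94179211 and 94179241, downstream of the printed window. From the first of these the same cores began at -145, -120 and -102, and from the second at -175, -150 and -132. The cores of Mt2 began at -223, -128, -50 and 4 from its RefSeq start. From the GENCODE start at 94172664 they ran from -269 to -42. From the other at 94172860, downstream of the printed window, they ran from -465 to -238. The Slc30a1 window (chr1:191906531-191906830, plus strand) held 2 cores, as many as 7.11% of windows hold or exceed. The Mtf1 window held none, and of 2 windows of Slc39a8 the first held none and the second 1. The promoter of Slc39a14 was not analysed here. The antioxidant response element core TGACNNNGC, present in 12.4% of windows, occurred once each in the Mt2, Slc30a1 and first Slc39a8 windows, in none of them overlapping an MRE core.

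**Figure D1:**
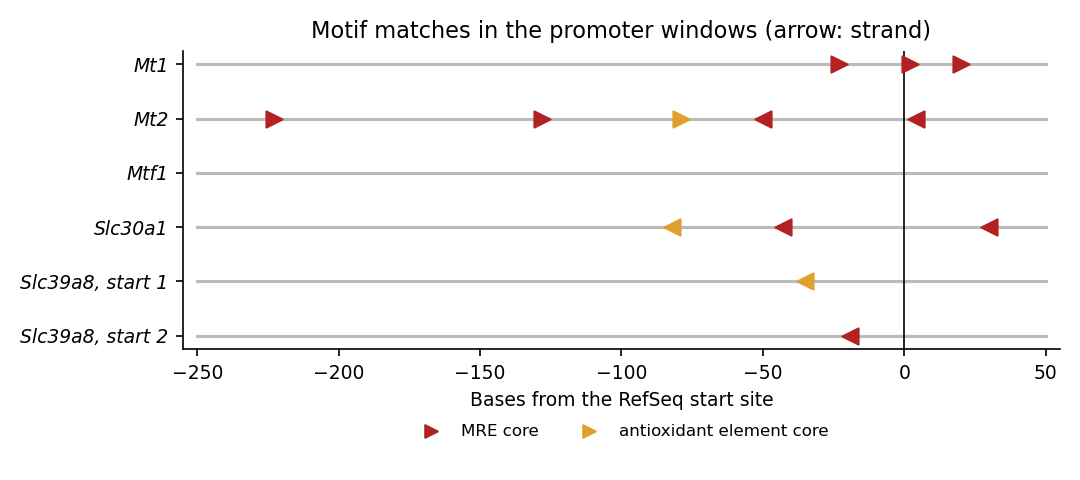
Positions of motif matches along each promoter window, in bases from the RefSeq start site at 0. Red arrows are MRE cores and yellow arrows antioxidant element cores, pointing along their strand; Mt1 shows 3 red arrows and Mt2 4, against 2 for Slc30a1 and none for Mtf1.

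In the wild-type library 1349 reads fell on Mt1, in the miR-26a knockout library 3394, in the miR-26a knockout library with mimic 3938 and in the cluster knockout library 5428. In TPM, the unit of the deposited tables, in which reads are divided by gene length and scaled to a fixed library total, the levels of Mt1 were 2352, 6499, 7045 and 10419.6 in the same order. Wild type was the lowest and the cluster knockout the highest, and no 2 of the 4 counting intervals (95%, exact Poisson) overlapped, with the nearest those of the miR-26a knockout (6282 to 6721 TPM) and its mimic culture (6827 to 7269 TPM). Mt1 was the 60th most abundant mRNA by TPM in wild type, the 12th and 11th in the miR-26a knockout libraries without and with mimic, and the 7th in the cluster knockout.

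Mt2, the neighbouring gene with a closely similar product, had 785 reads in wild type, 2078 in the miR-26a knockout, 2319 in the miR-26a knockout with mimic and 3428 in the cluster knockout. Its levels were 1470.4, 4275, 4457 and 7069.7 TPM. The order of the libraries was that of Mt1, but for Mt2 the counting intervals of the miR-26a knockout (4093 to 4463) and of its mimic culture (4278 to 4642) overlapped. Its rank by TPM was 100, 21, 20 and 13.

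**Figure D2:**
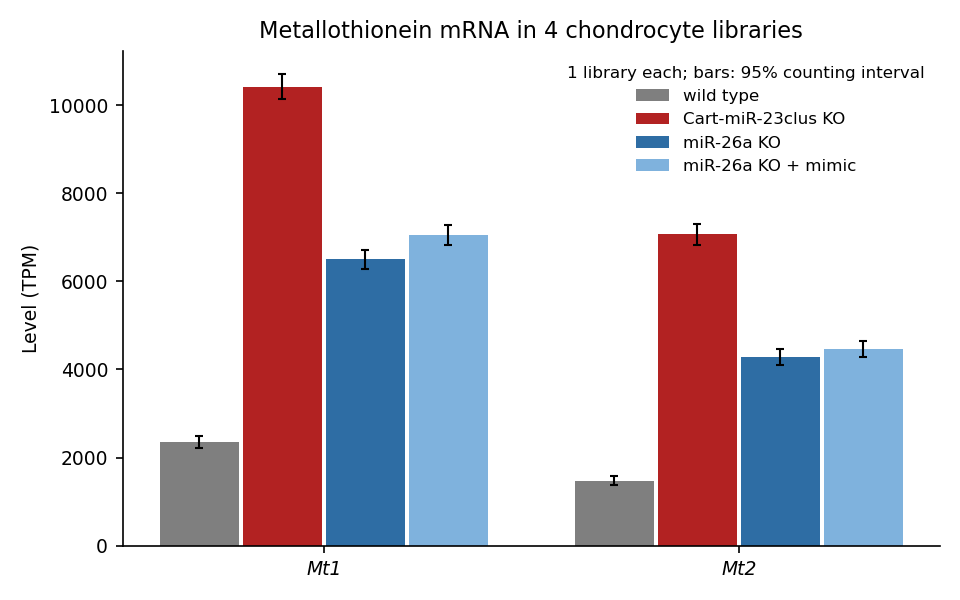
Level of Mt1 and Mt2 in TPM (vertical axis, from 0) in the 4 libraries, 1 bar per library with its 95% counting interval. For both genes wild type is lowest (2352 and 1470.4 TPM) and the cluster knockout highest (10419.6 and 7069.7 TPM), with the miR-26a knockout libraries between.

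The genes were counted almost in fixed proportion. Mt1 gave 63.2% of the reads of the pair in wild type (exact binomial interval 61.1 to 65.3%), 61.3% in the cluster knockout (60.3 to 62.3%), 62.0% in the miR-26a knockout (60.7 to 63.3%) and 62.9% with mimic (61.7 to 64.1%). All 4 intervals share the range from 61.7 to 62.3%. Together the pair took 0.142% of reads on genes in wild type, 0.399% in the miR-26a knockout, 0.432% with mimic and 0.663% in the cluster knockout. The transcripts of Mt1 and Mt2 share no exact stretch over 20 bases, and within 300 bases of their 3′ ends no transcript of another gene shares a word of 40 bases with either, so longer reads from their 3′ ends are not shared.

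Between the cluster knockout and wild-type libraries the TPM ratio was 4.43 for Mt1 (95% interval 4.17 to 4.71) and 4.81 for Mt2 (4.45 to 5.20). These intervals are exact Clopper-Pearson intervals on the reads, which cover counting error only and compare libraries, not conditions. Of 6935 genes with at least 20 reads in both libraries, 10 had a higher ratio than Mt1 and 8 a higher ratio than Mt2. In absolute terms Mt1 gained 8068 TPM, with 0 genes above it, and Mt2 gained 5599 TPM, with 2 genes above it. That order rests on division by gene length, and in CPM (reads scaled to the library total, without gene length) Mt1 gained 3166 and Mt2 2044, with 3 and 7 genes above them. Among the 6935 genes, 2.06% had a ratio above 2 and 1.47% a ratio below 0.5, and of the 5 members with enough reads 2 were above and 0 below.

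Between the miR-26a knockout and wild-type libraries the ratio was 2.76 for Mt1 (2.59 to 2.95) and 2.91 for Mt2 (2.68 to 3.16). In this comparison 26 of 7028 genes had a higher ratio than Mt1 and 22 a higher ratio than Mt2. Above 2 were 1.59% of the genes and 2 of the 5 members, and below 0.5 were 0.811% of the genes and 0 of the members. The comparison shares its wild-type library with the one before it, so that a low value in that library enters both.

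**Figure D3:**
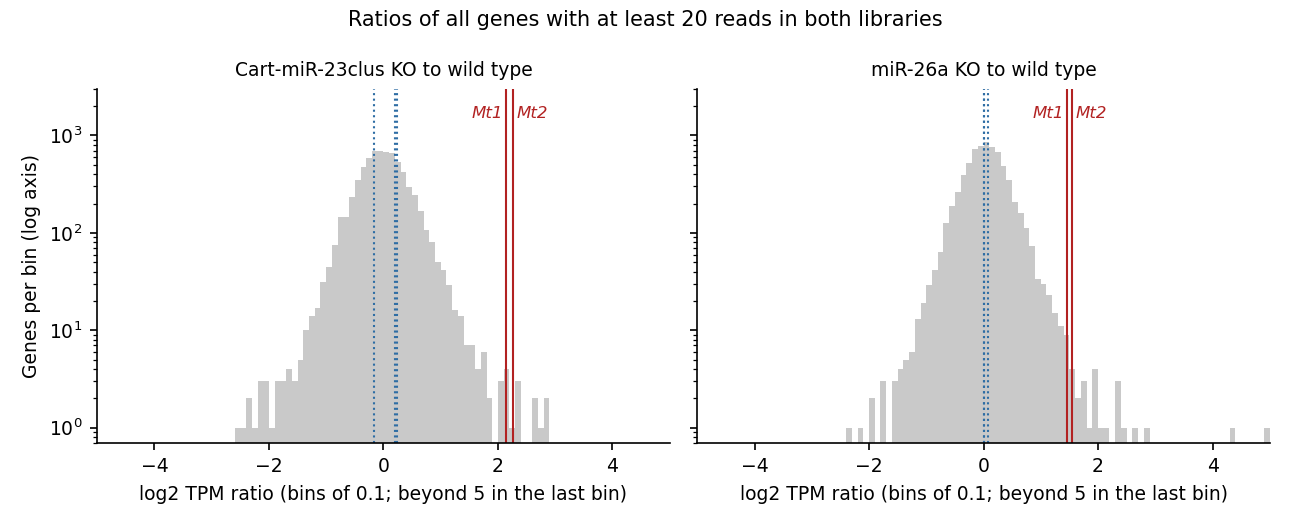
Distribution of log2 TPM ratios over genes with at least 20 reads in both libraries (horizontal axis in bins of 0.1, vertical axis the number of genes on a log scale), for the cluster knockout and for the miR-26a knockout to wild type. Red lines mark Mt1 and Mt2, at 2.15 and 2.27 in the left panel and 1.47 and 1.54 in the right, and dotted blue lines mark Mtf1, Slc30a1 and Slc39a14, which sit in the middle of the distribution.

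Set against each other, the knockout libraries differed less. The ratio of the cluster knockout to the miR-26a knockout was 1.60 for Mt1 (1.54 to 1.67) and 1.65 for Mt2 (1.57 to 1.75), so both intervals excluded 1, as did those of 19.9% of all genes, and both ratios stayed under 2. Of 6858 genes, 243 had a higher ratio than Mt1 and 213 than Mt2. In this comparison 1.21% of genes were above 2 and 1.15% below 0.5, and 0 of the 5 members were in either class.

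With the miR-26a mimic, the levels of Mt1 and Mt2 stayed near those of the miR-26a knockout library. The ratio of the mimic library to the miR-26a knockout was 1.08 for Mt1 (1.04 to 1.14), whose interval excluded 1 like that of 10.7% of all genes, and 1.04 for Mt2 (0.982 to 1.11), whose interval included it. The 99% intervals were 1.02 to 1.15 for Mt1 and 0.964 to 1.13 for Mt2. This comparison and the one before it share the miR-26a knockout library. Of all genes, 0.197% were above 2 and 0.183% below 0.5, with 0 of the 5 members in either class.

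Mtf1 (ENSMUSG00000028890, chromosome 4, 124802104 to 124849800, plus strand) encodes the metal-sensing factor that activates metallothionein promoters. It had 37 reads in wild type, 30 in the cluster knockout, 34 in the miR-26a knockout and 27 with mimic, or 4.69, 4.19, 4.73 and 3.51 TPM. All 4 counting intervals overlapped. Its ratio was 0.893 in the cluster knockout to wild type (0.533 to 1.49) and 1.01 in the miR-26a knockout to wild type (0.614 to 1.65), and the interval included 1 in all 4 comparisons. A difference within these intervals was not detectable at this depth. Zinc acts on the MTF-1 protein, which these libraries do not measure.

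Slc30a1 (ENSMUSG00000037434, chromosome 1, 191906767 to 191913247, plus strand), the zinc exporter that MTF-1 also activates, had 54 reads in wild type, 58 in the cluster knockout, 52 in the miR-26a knockout and 55 with mimic. Its levels of 9.86, 11.7, 10.4 and 10.3 TPM did not differ beyond their counting intervals. The ratio in the cluster knockout to wild type was 1.18 (0.802 to 1.75), an interval that lies wholly below the ratios of Mt1 and Mt2. In the miR-26a knockout to wild type it was 1.06 (0.709 to 1.58), again below those of the metallothioneins.

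Slc39a14 (ENSMUSG00000022094, chromosome 14, 70303469 to 70351425, minus strand) carries zinc, iron and manganese into cells and is known to be raised by inflammatory cytokines. It had 51, 53, 47 and 48 reads in wild type, the cluster knockout, miR-26a knockout and the mimic library. Its levels were 9.91, 11.3, 10.0 and 9.57 TPM and its ratio to wild type 1.14 in the cluster knockout and 1.01 in the miR-26a knockout. In no comparison did its interval leave out 1.

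Slc39a8 (ENSMUSG00000053897, chromosome 3, 135825279 to 135888572, plus strand), the importer studied in cartilage degradation, was close to the limit of detection. It had 2 reads in wild type, 9 in the cluster knockout, 3 in the miR-26a knockout and 2 with mimic, or 0.578, 2.86, 0.952 and 0.593 TPM. The cluster knockout library was the highest, and its ratio to wild type was 4.95 with an interval from 1.03 to 47.1 that included 1 once the confidence level was raised to 99% (0.708 to 111). The gene did not reach 20 reads in any library and is not counted among the 5 members above. Its intervals in the other 3 comparisons included 1.

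**Figure D4:**
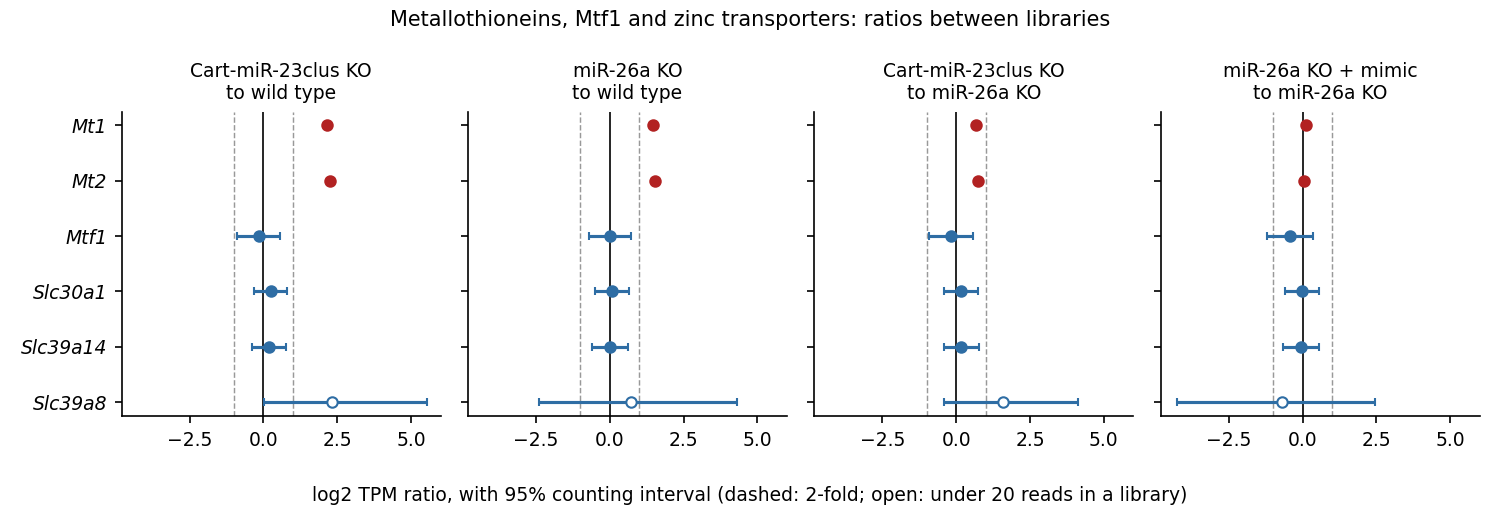
Log2 TPM ratio of each member (rows) in the 4 comparisons (panels) with 95% counting intervals; dashed lines mark 2-fold and open symbols genes under 20 reads in a library. Mt1 and Mt2 lie beyond the right dashed line in both comparisons with wild type, while the intervals of Mtf1, Slc30a1 and Slc39a14 cross 0 in every panel and that of Slc39a8 is wide.

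By TPM, which divides reads by gene length and so suits 3′ reads poorly for comparing genes, the members kept 1 order in the 4 libraries for the abundant genes. Mt1 was above Mt2 by 1.60, 1.47, 1.52 and 1.58 times in wild type, the cluster knockout, miR-26a knockout and mimic. Every other member was at 11.7 TPM or below in every library, whereas Mt2 was at 1470.4 TPM or above. Slc30a1 and Slc39a14 followed at about the same level, with overlapping intervals in each library. Mtf1 lay below them and Slc39a8 last.

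The other zinc transporters were read as families. Of the 10 exporters Slc30a1 to Slc30a10, 7 had reads, with summed levels of 145, 120, 104 and 115 TPM in wild type, the cluster knockout, miR-26a knockout and the mimic library. Of the 14 importers 10 had reads in at least 1 library, and their sums were 384, 403, 403 and 436 TPM. Slc39a1, Slc39a11 and Slc39a13, which import zinc into the cytosol from outside or from organelles, were the most abundant, at 113, 116 and 95.6 TPM in wild type. Mt3 and Mt4, the brain and squamous epithelium metallothioneins, had 0 reads in all 4 libraries, which allows at most 3 reads, or between 0.000199 and 0.000224% of a library.

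Of the 24 transporters 14 had at least 20 reads in both libraries of a comparison, and 0 of these were past 2-fold in any of the 4. Ratios to wild type ran from 0.561 (Slc30a9) to 1.49 (Slc39a6) in the cluster knockout and from 0.566 (Slc30a7) to 1.37 (Slc39a6) in the miR-26a knockout. The median log2 ratio was -0.05 and 0.03, beside -0.01 and 0.04 over all genes. The interval excluded 1 for 1 of the 14 in the cluster knockout to wild type, against 25.7% of all genes, namely Slc30a9, at 104 reads in wild type and 53 in the cluster knockout. In the miR-26a knockout to wild type it excluded 1 for 2 of the 14, against 20.5% of all genes. These were Slc30a7, which supplies zinc to the secretory pathway, at 34 reads against 66 in wild type, and Slc39a3, at 25 against 47. In the cluster knockout to the miR-26a knockout the ratios ran from 0.664 (Slc30a9) to 1.71 (Slc30a7), and the intervals of these 2 of the 14 excluded 1, against 19.9% of all genes. In the mimic library to the miR-26a knockout they ran from 0.692 (Slc39a10) to 1.46 (Slc30a6), and the interval excluded 1 for 1 of the 14, Slc39a9, at 160 against 111 reads, beside 10.7% of all genes. In none of the 4 comparisons was the share of transporters above that of all genes.

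Slc30a3, named here after its values were seen, had the lowest ratio to wild type of the transporters with reads, in both knockouts. It had 16 reads in wild type, 2 in the cluster knockout, 4 in the miR-26a knockout and 6 with mimic, too few for the limit of 20. Its ratio to wild type was 0.138 (0.0154 to 0.585) in the cluster knockout. Slc39a7 was listed at 0 in all 4 libraries. GENCODE places the transcript Gm20427 over Slc39a7 on the same strand, so its level is uncertain where the counting left out reads shared by overlapping genes.

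**Figure D5:**
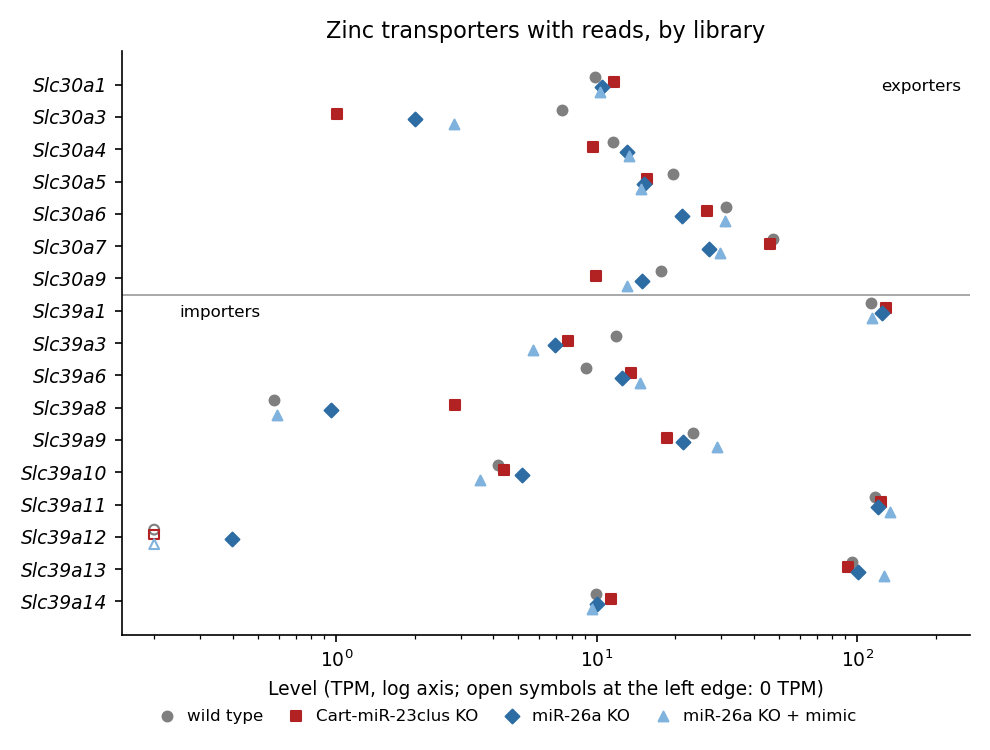
Level of the 17 zinc transporters with reads, in TPM on a log axis, with 1 symbol per library and open symbols at the left edge for 0 TPM. Within most genes the 4 symbols lie close together. Among those with reads in every library Slc30a3 and Slc39a8, both with few reads, spread the most. Slc39a12 had 1 read, in the miR-26a knockout, and 0 TPM elsewhere.

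Genes of other metal and stress pathways were described with lists of well-known members, again over genes with at least 20 reads in both libraries. Of all such genes, 2.06% were above 2 and 1.47% below 0.5 in the cluster knockout to wild type. In the miR-26a knockout to wild type these shares were 1.59% and 0.811%. Against the miR-26a knockout they were 1.21% and 1.15% in the cluster knockout and 0.197% and 0.183% with mimic. All-gene median log2 ratios to wild type were -0.01 and 0.04 in the 2 knockouts. The limit leaves out genes that fell or rose from a low level, and some of these whose interval lay wholly past 2-fold are named, after their values were seen. None of the 6 or 7 of 11 copper handling genes with enough reads was past 2-fold in any comparison, and likewise none of the 8 or 9 of 11 heat-shock genes. Among 8 of 13 iron and manganese handling genes with enough reads, Hmox1, the haem-degrading enzyme, was above 2 in both knockouts, and the ferrireductase Steap3 was above 2 in the miR-26a knockout. Fth1, the ferritin heavy chain and the most abundant gene of the list, lay at the limit, with 5480, 9930, 6875 and 8185 reads in wild type, the cluster knockout, miR-26a knockout and the mimic library. Its ratio in the cluster knockout to wild type was 1.995 (1.93 to 2.06), or 2.04 in CPM, and 1.38 in the miR-26a knockout to wild type. Hmox1 had 87 reads in wild type, 229 in the cluster knockout, 182 in the miR-26a knockout and 168 with mimic, giving ratios to wild type of 2.90 and 2.30. Steap3 had 59, 103, 125 and 141 reads, and ratios of 1.92 and 2.33. The median log2 ratios to wild type in the cluster and miR-26a knockouts were 0.16 and 0.15 for copper handling, 0.14 and 0.08 for heat shock, and 0.30 and -0.10 for iron and manganese handling.

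Hmox1 also belongs to the antioxidant targets of NRF2, a factor that oxidants and some metals activate. Of 10 NRF2 targets, 7 had enough reads in the cluster knockout to wild type and 3 were above 2, against 2.06% of all genes. In the miR-26a knockout to wild type 9 had enough and 2 were above 2, against 1.59% of all genes. Nqo1, a quinone reductase, had 37, 80, 68 and 78 reads in wild type, the cluster knockout, miR-26a knockout and the mimic library, with ratios of 2.38 and 2.02 to wild type. G6pdx, which supplies reducing power, was at 2.24 in the cluster knockout and 1.12 in the miR-26a knockout. Slc7a11, the cystine importer, was below 0.5 in the cluster knockout to the miR-26a knockout, at 20 against 46 reads. In that comparison G6pdx was at 2.01. The list's median log2 ratio to wild type was 0.41 in the cluster knockout and 0.20 in the miR-26a knockout, beside -0.01 and 0.04 over all genes.

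Of 10 glucocorticoid-induced genes, 6 had enough reads in the cluster knockout to wild type and 0 were past 2-fold, and 5 had enough in the miR-26a knockout to wild type and 1 was above 2. That gene was Tsc22d3, at 35 reads in wild type and 67 in the miR-26a knockout, a ratio of 2.10 (1.38 to 3.26). Cdkn1c, a cell cycle inhibitor of the same list, was under the limit there because it was low in the miR-26a knockout, at 12 reads against 87 in wild type, a ratio of 0.151 (0.0754 to 0.278). It had 46 reads in the cluster knockout and 8 with mimic, so this gene and Tsc22d3 lay on opposite sides of wild type. The list genes with enough reads in the miR-26a knockout to wild type were all above 1. Beside Tsc22d3, Dusp1 was at 1.62, Klf9 at 1.58, Sgk1 at 1.34 and Nfkbia at 1.21. Of 12 genes induced through IL-6 and STAT3, 7 had enough reads in each comparison with wild type, of which 1 was above 2 in the cluster knockout and 0 in the miR-26a knockout. It was Socs3, the feedback inhibitor of that pathway, at a ratio of 2.73, with 58 reads in wild type, 144 in the cluster knockout, 72 in the miR-26a knockout and 111 with mimic. Against the miR-26a knockout it was at 2.01, the 1 of 8 genes with enough reads above 2. Lcn2, a secreted iron-siderophore binding protein, was under the limit because wild type had 10 reads, against 49 in the cluster knockout, 53 in the miR-26a knockout and 56 with mimic. Its ratios to wild type were 5.39 (2.70 to 11.9) and 5.82 (2.93 to 12.8), so both knockouts were above 2 with their whole interval. Saa3, an acute-phase protein, had 1 read in wild type, 15 in the cluster knockout, 6 in the miR-26a knockout and 12 with mimic, and ratios of 16.5 (2.54 to 695) and 6.59 (0.799 to 303). Il6 itself had 0 reads in every library. In the cluster and miR-26a knockouts the median log2 ratios to wild type were 0.36 and 0.66 for the glucocorticoid list. They were -0.04 and 0.16 for the IL-6 list. All are over the genes with enough reads only, beside -0.01 and 0.04 over all genes.

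Genes of zinc enzyme families went in several directions. Car3, a carbonic anhydrase of fat and muscle, had 126 reads in wild type and 568 in the cluster knockout, a ratio of 4.96, and was at 0.828 in the miR-26a knockout. Sod3, the extracellular superoxide dismutase, was at 1.39 and 2.62. Alpl, the zinc-containing alkaline phosphatase of mineralizing cells, was at 0.192 and 0.655, and Car8, a relative of the carbonic anhydrases without their activity, was at 0.315 and, with 19 reads in the miR-26a knockout and so under the limit, 0.298 (0.169 to 0.501). In the cluster knockout to the miR-26a knockout Car3 was at 5.99 and Alpl at 0.293. The list's median log2 ratio to wild type was 0.28 in the cluster knockout over 5 genes with enough reads and -0.06 in the miR-26a knockout over 4. Of 5 matrix-degrading enzymes with enough reads, of 8 listed, 1 was below 0.5 in the cluster knockout to wild type, namely Adamts1 at 0.493, and 0 in the miR-26a knockout. Against the miR-26a knockout, Mmp13 and Adamts5 were below 0.5 in the cluster knockout, at 0.378 and 0.359. Mmp3 was under the limit in that comparison, with a ratio of 5.81 (2.23 to 19.2). The median log2 ratio of these enzymes to wild type was -0.75 in the cluster knockout and -0.10 in the miR-26a knockout.

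The genes whose pattern over the 4 libraries was nearest to that of Mt1 were ranked by the root mean square difference of log2 TPM centred on each gene's mean, among 6546 genes with at least 20 reads in all 4. Mt2 was the nearest, at 0.0467, and Mt1 was the nearest to Mt2. Next to Mt1 came F2r (0.173), Ier2 (0.217), Tinagl1 (0.220) and Lox (0.226), and next to Mt2 came Maoa (0.193), Ccn3 (0.198), F2r (0.209) and Lox (0.231). Each metallothionein was thus nearer to the other than to any other gene. F2r, the thrombin receptor, had 36 reads in wild type, 107 in the cluster knockout, 70 in the miR-26a knockout and 81 with mimic, and Lox, which crosslinks collagen, had 1211, 4416, 4198 and 3620. The likeness rests on 4 libraries.

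The deleted miRNAs were set beside the members' mRNAs through their seeds, bases 2 to 8, which pair with matching sites in 3′ untranslated regions. Their mature sequences from RefSeq are printed with the seed in capitals, to show which letters were searched. The miR-23, miR-27 and miR-24 families come from the clusters deleted in the cluster knockout, and the mimic's sense strand equals the mature miR-26a.
miR-23a-3p: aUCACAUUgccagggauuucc
miR-27a-3p: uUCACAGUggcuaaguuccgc
miR-24-3p: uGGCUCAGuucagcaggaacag
miR-26a-5p: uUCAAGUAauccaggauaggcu
No 2 of the 4 share a seed. The 3′ untranslated regions of Mt2, of 141 and 64 bases in its 2 annotated transcripts, held a match to none of the 4 seeds. Regions so short leave few places for a match of 7 bases, so its absence there says little. In Mt1 a match to miR-27a and a match to miR-24 lay in the longest of 3 annotated regions, of 901 bases, and not in the other 2. Matches of 7 bases to these miRNAs occurred in 16.3% and 16.5% of 20674 genes, and matches to miR-23a and miR-26a in 15.3% and 9.83%. These shares are over the longest annotated region of each gene and take no account of its length. Mtf1 held 1 match to miR-23a, in both of its annotated regions, of 5457 and 5036 bases. Slc30a1 held 1 to miR-23a and 1 to miR-26a, in the region of 3492 bases and not in the other annotated region of 308 bases, and Slc39a8 and Slc39a14 held none. The precursor genes of these miRNAs were listed at 0 TPM in all 4 libraries, so the tables do not check the deletions.

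Libraries also differed in markers of several cell types, and their part in the result was not tested. The summed levels of none of the 7 cell types rose over the libraries in the order of Mt1 and Mt2. Those of the chondrocyte markers fell in that order. Reads on genes ranged from 1336496 to 1505805. All 14 chondrocyte markers had reads in every library, including Col2a1, Acan and Sox9, and their summed level was 18004 TPM in wild type and 12308 to 12849 in the other 3 libraries. The chondrocyte markers Col11a1 and Matn1 were below 0.5 in the cluster knockout to wild type, at 0.466 and 0.402, while Comp, Matn3 and Col9a2 were at 1.70, 1.38 and 1.32. Matn1 was at 0.350 in the miR-26a knockout to wild type and at 0.487 in the mimic library to the miR-26a knockout, and Col9a2 was at 2.54 in the cluster knockout to the miR-26a knockout. The median log2 ratio of the 14 to wild type was -0.27 in the cluster knockout and -0.48 in the miR-26a knockout. Osteoblast markers summed to 13003 TPM in wild type, 3906 in the cluster knockout, 6855 in the miR-26a knockout and 7727 with mimic, so they were highest in the library where Mt1 and Mt2 were lowest and lowest where these were highest. Of the 5 with enough reads in the cluster knockout to wild type, Col1a1, Ibsp, Sp7 and Alpl were below 0.5, at 0.207, 0.166, 0.335 and 0.192, and Spp1 was above 2, at 2.09. Of 7 in the miR-26a knockout to wild type, Col1a1 was below 0.5, at 0.425. Against the miR-26a knockout, Col1a1, Ibsp and Alpl were below 0.5 in the cluster knockout, at 0.488, 0.284 and 0.293, and Spp1 was at 2.39. Bglap and Bglap2, under the limit because they were low in the cluster knockout, were at 0.169 and 0.134 to wild type.

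Adipocyte markers summed to 159 TPM in wild type and 481 in the cluster knockout, against 125 and 176 in the miR-26a knockout libraries. Plin4, Fabp4 and Lpl made up most of this and were all above 2 in the cluster knockout, at 3.59, 4.31 and 2.02 to wild type and at 2.75, 3.39 and 5.55 to the miR-26a knockout. In the miR-26a knockout to wild type they went in opposite ways, with Lpl below 0.5, at 0.364, and Plin4 and Fabp4 at 1.30 and 1.27. Of the other markers, Adipoq had 8 reads in wild type and 9 in the cluster knockout, a ratio of 1.24 (0.424 to 3.69), and 1 and 0 in the miR-26a knockout libraries without and with mimic. Cfd had 5 reads in the cluster knockout and 1 in each other library, Lep and Cidec had 0 reads and Plin1 had at most 1. Macrophage markers summed to 1073, 1319, 392 and 726 TPM in wild type, the cluster knockout, miR-26a knockout and the mimic library, so they were low in the miR-26a knockout, where Mt1 and Mt2 were high. None of 9 macrophage markers with enough reads was past 2-fold in the cluster knockout to wild type by TPM. Csf1r and Adgre1 lay at the limit, both at 1.98 (1.50 to 2.64 and 1.12 to 3.61) and at 2.03 in CPM. Lyz2 and C1qb, 2 of the 4 with enough reads, were below 0.5 in the miR-26a knockout, at 0.342 and 0.371. In the cluster knockout to the miR-26a knockout all 4 were above 2, with Csf1r at 3.21, Cd68 at 2.43, Lyz2 at 2.86 and C1qb at 3.51. Adgre1, C1qa, C1qc, Tyrobp and Fcer1g were under the limit in the miR-26a knockout to wild type, at ratios of 0.110 to 0.271 with intervals wholly below 0.5. Smooth muscle markers summed to 177, 366, 169 and 226 TPM, most of it Acta2, at 151, 309, 151 and 195 TPM, whose ratio in the cluster knockout was 2.04 to wild type and 2.05 to the miR-26a knockout. Myl9 was at 1.24 to wild type in the cluster knockout, Myh11 was at 0, and Tagln, under the limit, had 3 reads in wild type and 37 in the cluster knockout. Fibroblast markers summed to 2503, 1756, 2866 and 2695 TPM. Endothelial markers were at or near 0, with summed levels from 0 to 0.406 TPM over 6 genes. In such bulk libraries fewer cells of a type and less RNA per cell cannot be told apart.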

How the data were processed

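Total RNA of 1 culture per condition was made into QuantSeq 3′ mRNA libraries (single-end) and mapped by the authors to the mouse genome (GRCm38, mm10). The aligner and counter are not given in the sources used here. The deposited tables hold TPM per gene for all 4 libraries, normalised by the authors, and estimated counts per gene for 3 of them, which were whole numbers. Footers of the count table that name no gene were left out of totals. For the mimic library reads were recovered from the TPM steps, since a gene's TPM per read is fixed by its length and the library: 14429 of 14429 values tested (100%) were within 0.05 reads of a whole number, and 588 genes holding 0.0817% of TPM were not recovered. Where the design assumed deposited counts for that library, these reads were used. Reads on genes were 1505805 in wild type, 1336496 in the cluster knockout, 1369924 in the miR-26a knockout and 1449246 in the mimic library. Of the reads sequenced, 76.45 to 83.24% had been aligned in the 3 libraries where this is stated.

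The members and all gene lists were chosen with earlier results of these data known. Ratios are ratios of deposited TPM without a pseudocount. Genes with at least 20 reads in both libraries were compared, with limits of 2 and 0.5 (the TPM ratio between libraries). With 1 library per condition there is no spread between replicates and no p-value. Intervals are exact (Poisson for levels, Clopper-Pearson for shares and ratios, 95%) and cover counting error only. PCR duplicates are not separate molecules. The floor for a count of 0 is 3 reads. Named beside the members are list genes past 2-fold, at most 5 per list and comparison, defining cell type markers and the 5 genes nearest to Mt1 and Mt2. Genes named outside this rule were chosen after their values were seen. Lists covered zinc exporters and importers, metallothioneins, handling of copper and of iron and manganese, genes induced by glucocorticoids or by IL-6 and STAT3, heat-shock and NRF2 genes, matrix-degrading and other zinc-dependent enzymes, and markers of 7 cell types. The intervals and the recovery of reads were tested on simulated data. Sequences came from RefSeq and GENCODE vM21. Python 3.11.15 with numpy 2.4.6, pandas 2.3.3, scipy 1.17.1 and matplotlib 3.10.9, and R 4.3.3 with edgeR 4.0.16 and DESeq2 1.42.0 (scaling factors only) were used. Alternatives were counts scaled to the library total (CPM), edgeR and DESeq2 scaling, 0.5 or 1 TPM added, a 99% interval and weaker filters on low values.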

Additional observations from a re-analysis of the deposited data

How the results depend on the processing

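In 167 of 168 alternative values of the member ratios, the ratio stayed within the reported 95% interval or, for the 99% interval, inclusion of 1 was unchanged. The exception was Slc39a8 in the cluster knockout to wild type, whose ratio of 4.95 had a 99% interval that included 1. The 95% intervals of this gene were wide, so its ratio could move far within them. With 0.5 or 1 TPM added that ratio fell to 3.12 and 2.45. Against the miR-26a knockout the ratio of Slc39a8 fell from 3.01 to 2.32 and 1.98. Member ratios moved to the other side of 1 in 6 of the 168, all with intervals that included 1. These were Mtf1 (1.01 to 0.984 with edgeR and 0.991 with DESeq2 scaling) and Slc39a14 (1.01 to 0.986 and 0.994) in the miR-26a knockout to wild type, and Slc30a1 in mimic to the miR-26a knockout (0.988 to 1.0047 with edgeR scaling and 1.00013 with Mt1 and Mt2 left out of the total). Over scalings and added TPM, the ratio of Mt1 stayed between 4.43 and 4.56 in the cluster knockout to wild type and between 2.69 and 2.77 in the miR-26a knockout to wild type, and that of Mt2 between 4.81 and 4.95 and between 2.83 and 2.92. Counts of genes past 2-fold depended on the filter on low values. Among genes with TPM above 0 in both libraries, 1397 were above 2 and 1092 below 0.5 in the cluster knockout to wild type (143 and 102 with 20 reads in each), 1185 and 1020 in the miR-26a knockout to wild type (112 and 57), 1369 and 893 in the cluster knockout to the miR-26a knockout (83 and 79), and 707 and 993 in mimic to the miR-26a knockout (14 and 13). With at least 10 reads together these counts were 729 and 690, 595 and 628, 671 and 548, and 380 and 337. Under either weaker filter 1 zinc transporter was above 2 and 1 below 0.5 in the cluster knockout to wild type, 1 was below 0.5 in the miR-26a knockout to wild type, and 1 was above 2 in the cluster knockout to the miR-26a knockout, instead of 0. These were genes under the limit of 20 reads. Of the list genes with enough reads, 4 changed their side of a 2-fold limit under CPM, edgeR or DESeq2 scaling in the cluster knockout to wild type (Fth1, Csf1r and Adgre1, and Adamts1 at 0.504 in CPM), 1 in the miR-26a knockout to wild type (Nqo1, 1.97 with edgeR scaling) and 1 in the cluster knockout to the miR-26a knockout (Col1a1, 0.502 with edgeR scaling). These scalings of the lists, gains in CPM, CPM with Mt1 and Mt2 left out of the total, and the transporter lists without the members, were alternatives added after seeing the data. No paired analysis was possible because no condition was sampled more than once.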
